A study of Danio rerio with 24 samples.

Results

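The members described here are the nuclear genes of the mitochondrial respiratory chain and ATP synthase in the liver of zebrafish larvae. They were taken from the count table by gene symbol, with case ignored: symbols that begin with ndufa, ndufb, ndufc, ndufs, ndufv, uqcr, atp5 or cox4 to cox8, and the symbols of complex II and of cytochrome c1 (CYC1). The rule used no measured value and gave 103 of the 32520 genes in the table. By symbol, 38 are subunits of complex I, 3 of complex II, 9 of complex III, 20 of complex IV and 18 of ATP synthase. The prefixes also took in 8 complex I assembly factors (NDUFAF1 to NDUFAF8), 4 genes of the NDUFA4 family, 2 ATP synthase inhibitors (atp5if1a and atp5if1b) and COX7A2L, a factor that joins complexes III and IV into supercomplexes. The membrane anchor SDHD was carried under that symbol by 2 IDs and not under the names sdhda or sdhdb, so it is not a member. Of the members, 102 had the 10 counts in total needed to enter each test and 91 had a mean of at least 50 counts per library. The only one left out was ndufa4l2b.

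The respiratory chain sits in the inner mitochondrial membrane. Complex I (NADH dehydrogenase) and complex II (succinate dehydrogenase) pass electrons to coenzyme Q, complex III passes them on to cytochrome c, and complex IV (cytochrome c oxidase) gives them to oxygen. The proton gradient built by complexes I, III and IV drives ATP synthase. Most subunits are encoded in the nucleus and a small set in mitochondrial DNA, and hepatocytes are rich in mitochondria because they oxidize fatty acids and make glucose, bile and plasma proteins.

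Livers were compared between larvae fed a normal control diet (NCD, a commercial larval food) and larvae given that food with 10% cholesterol by weight (HCD), in wild-type (WT) siblings and in larvae that overexpress microRNA-21 in the liver (miR-21OE). Feeding began at 6 days post fertilization and livers were taken at 13 days, with 13 livers pooled per library, so a library is a pool from one clutch and not one animal. The transgene places the zebrafish miR-21 precursor and the fluorescent protein Dendra2 under the hepatocyte promoter of fabp10a, with mCherry in the eye lens as a marker, in the AB background. The libraries were WT-NCD (n = 9), WT-HCD (n = 9), miR-21OE-NCD (n = 3) and miR-21OE-HCD (n = 3), in 9 batches. Batches 1 to 6 held WT libraries of both diets and batches 7 to 9 held all 4 groups. A transgenic line with Dendra2 and no miR-21 was not among the groups, so the effects of the microRNA and of the rest of the transgene cannot be told apart.

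Counts per library ranged from 16942574 to 36641566. The labels were checked on the targeted gene: MIR21 (ENSDARG00000082187) had a level (CPM, counts scaled to one common library total with TMM factors) of 5.34 to 10.3 in miR-21OE and 0.512 to 5.38 in the WT libraries of batches 7 to 9, so the ranges overlapped slightly. CRYAA, the crystallin whose promoter drives the lens marker, was counted 7 to 25 times per miR-21OE library and at most once in those WT libraries. All 11 hepatocyte markers were counted in every library (fabp10a 78207 to 359778 times), and their summed CPM was 22018 to 196914 and was lowest in WT-HCD 1 (22018) and WT-HCD 6 (42156). WT-HCD 6 also had the highest sum of neutrophil markers (285), WT-HCD 2 that of enterocyte markers (241), and miR-21OE-NCD 3 that of exocrine pancreas markers (21794). In pooled whole livers, fewer cells of a type and less RNA per cell cannot be told apart.

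The members took 0.594 to 1.01% of all counts, with a median of 0.740%. In WT-NCD the lowest, median and highest shares were 0.594, 0.724 and 0.836%, and in WT-HCD 0.614, 0.701 and 0.866%. In miR-21OE-NCD they were 0.825, 0.883 and 1.01%, and in miR-21OE-HCD 0.802, 0.942 and 0.965%. The 2 WT groups overlapped over most of their range. Within each of batches 7 to 9 the share was higher in the miR-21OE library than in the WT library on the same diet, in 3 of 3 batches on NCD and in 3 of 3 on HCD. With TMM scaling, the members' summed CPM was higher in 2 of 3 batches on each diet, batch 7 on NCD (a log2 difference of -0.0081) and batch 8 on HCD (-0.14) being the exceptions.

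Levels of single members differed between batches 1 to 4 and batches 5 to 9 in the WT libraries. ATP5F1A and ATP5F1B are the catalytic alpha and beta subunits of ATP synthase. Together they held 26.6 to 34.3% of the members' counts in batches 1 to 4, against 42.9 to 49.997% in batches 5 to 9. ATP5F1A was at 368 to 986 CPM in batches 1 to 4 and at 1103 to 2484 in batches 5 to 9. Of the 103 members, 14 were higher in every WT library of batches 1 to 4 than in every one of batches 5 to 9, where 4.29% of all tested genes were, and 8 were lower in every one, where 4.83% of all tested genes were. The 14 were mostly small accessory subunits: NDUFA1, NDUFA3, ndufa7, NDUFA12, NDUFAB1, NDUFB4 and NDUFB6 of complex I, SDHC, UQCRH, cox6c, COX7A2 (ENSDARG00000110700) and atp5mj, with NDUFA4 and the assembly factor NDUFAF2. The 8 were ATP5F1A, UQCRC2, uqcrc2a, cox6b1, NDUFA6, ndufb3, NDUFAF3 and atp5if1a. NDUFA4 was at 31.7 to 68.6 CPM in batches 1 to 4 against 10.7 to 25.1 in batches 5 to 9. For cox6b1, a complex IV subunit, the ranges were 32.2 to 47.9 and 69.2 to 109. Over all libraries, the summed share of the 13 mitochondrially encoded subunits moved with this split and was 1.81 to 2.88% of counts in batches 1 to 4, against 0.185 to 0.428% later. MT-ND5 (351 to 1419 CPM early, 248 to 1197 later) and MT-ND6 (82.3 to 172 early, 116 to 661 later) did not separate in this way. The signal recognition particle RNA rn7sl1 took 1.72 to 2.77% in the early batches and 6.45 to 13.1% in the later ones. Diets and genotypes were therefore compared within batches as well as across them.

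**Figure D1:**
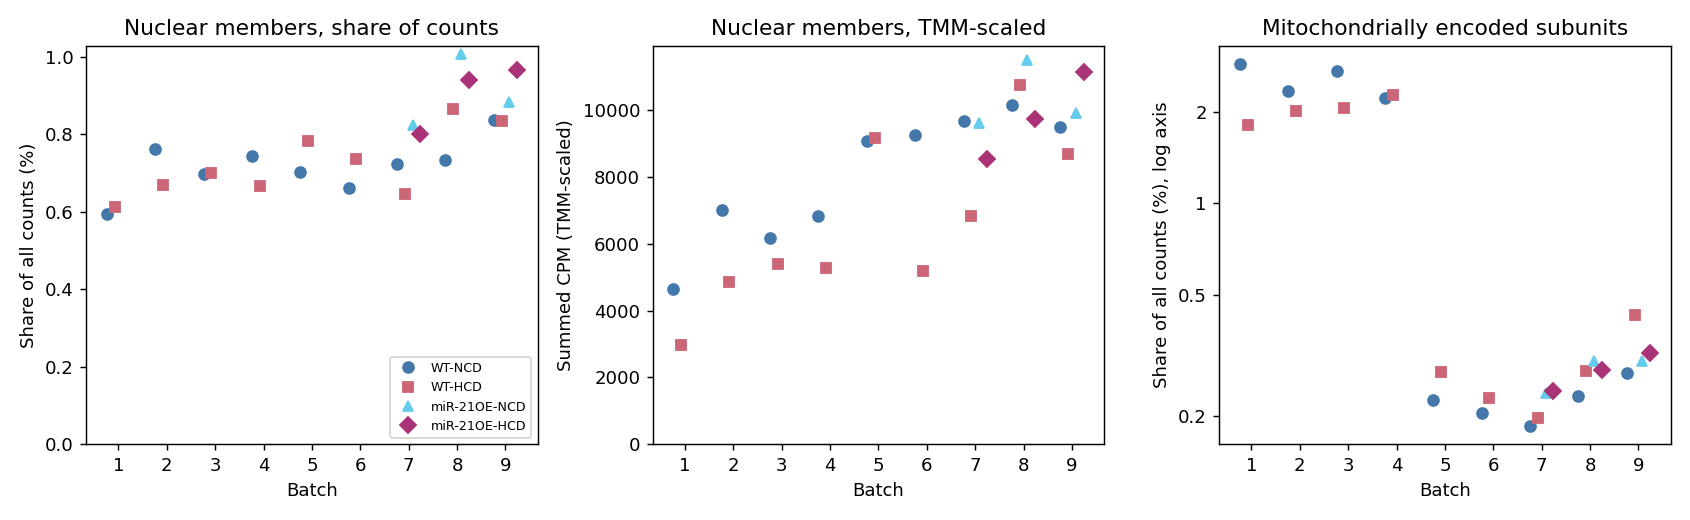
Members' share of all counts (percent), their summed level (TMM-scaled CPM) and the share of the 13 mitochondrially encoded subunits (percent, log axis) against batch, 1 point per library, with the 4 groups in different symbols. The mitochondrially encoded share lies at 1.81 to 2.88% in batches 1 to 4 and does not exceed 0.428% in batches 5 to 9. The members' summed CPM is lower on HCD than on NCD in 7 of 9 WT batches.

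The first comparison asked how the high-cholesterol diet changed the members in WT liver, over 9 libraries per diet. Most members were lower on HCD, by a small amount: with batch as a block, 86 of 102 had a log2 fold change below 0 and the median was -0.24, beside 0.04 over all genes tested. In that blocked fit 5 of 102 members fell and 1 rose (edgeR quasi-likelihood test, adjusted p under 0.05). The share of members called was thus below the 7.48% of all genes called. The members that fell were uqcrc2a and UQCRC1 (which encode core proteins of complex III), NDUFS8 (an iron-sulfur subunit of complex I), cox8b (a small subunit of complex IV) and NDUFAF5 (a complex I assembly factor). The member that rose was COX6A1 (ENSDARG00000054588), a regulatory subunit of complex IV. In the fit with no batch term 90 of 102 members were below 0 and the median was -0.23, but no member was called, where 1.15% of all genes were. In that fit 1 member was higher and 4 were lower at an unadjusted p under 0.05. In the blocked fit 1 was higher and 43 lower at that threshold. Shares of all genes at an unadjusted p under 0.05 are not given here or below. Such counts therefore do not set the members apart from other genes. DESeq2 with the block called 32 members (1 higher, 31 lower, all 6 above included), beside 13.2% of all genes.

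**Figure D2:**
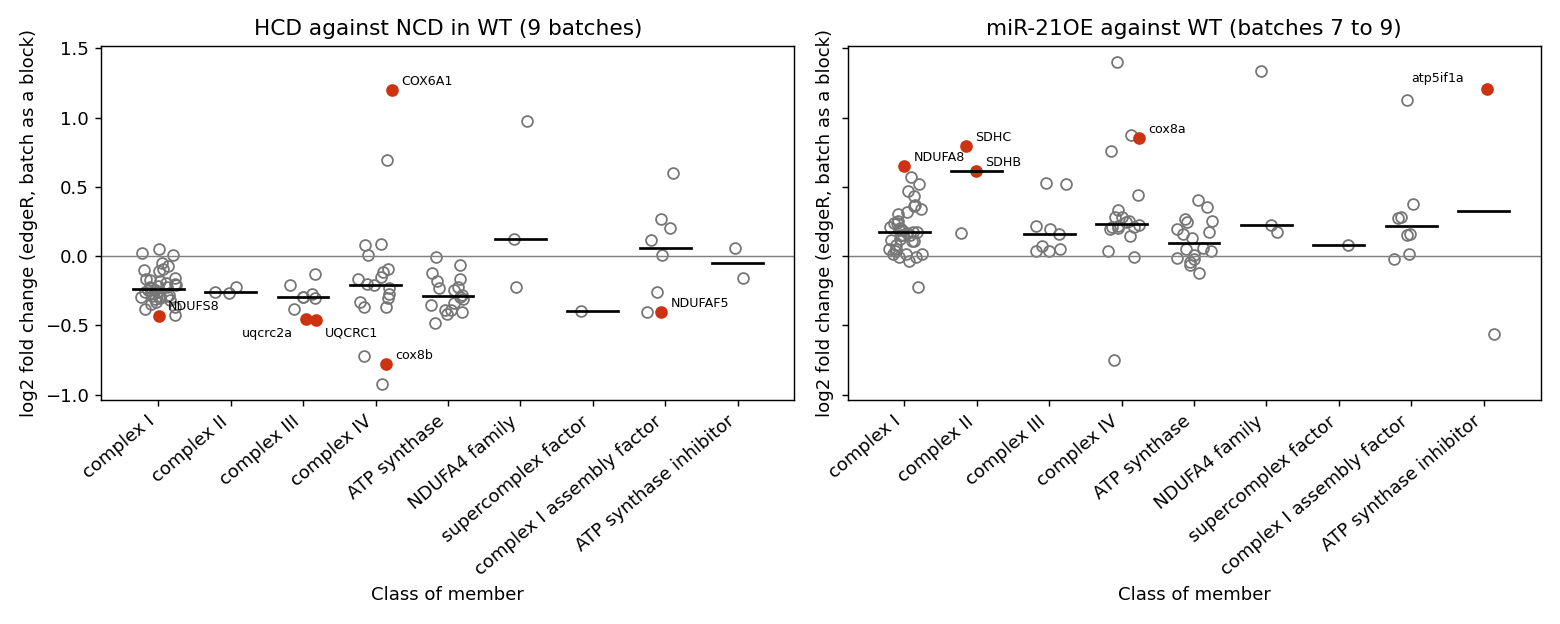
Log2 fold change of each of 102 members for HCD against NCD in WT (left, 9 batches) and for miR-21OE against WT averaged over both diets (right, batches 7 to 9), by class, from the edgeR fit with batch as a block. Filled red points are members with an adjusted p under 0.05 and black bars are class medians, which for diet lie at -0.23 for complex I, -0.26 for complex II, -0.30 for complex III, -0.21 for complex IV and -0.29 for ATP synthase.

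The lower levels were spread over every complex. Below 0 in the blocked fit were 35 of 38 complex I subunits (median log2 fold change -0.23), 3 of 3 of complex II (-0.26), 9 of 9 of complex III (-0.30), 15 of 20 of complex IV (-0.21) and 18 of 18 of ATP synthase (-0.29). Calls were few in each: 1 of 38 in complex I, 0 of 3 in complex II, 2 of 9 in complex III, 2 of 20 in complex IV and 0 of 18 in ATP synthase, where 8 had an unadjusted p under 0.05. The 8 complex I assembly factors stood at a median of 0.06 with 3 below 0.

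Of the 3 core protein genes of complex III, uqcrc2a and UQCRC1 were called and UQCRC2 was not. The level of uqcrc2a was 110, 271 and 381 CPM (lowest, median, highest) in WT-NCD and 62.7, 179 and 314 CPM in WT-HCD. The groups overlapped across batches, and within batches HCD was lower in 9 of 9. Its log2 fold change was -0.45 ± 0.12 (SE, adjusted p = 0.0424 in the blocked fit and 0.637 with no batch term). UQCRC1 was at 129, 175 and 201 CPM on NCD and 77.3, 126 and 205 CPM on HCD. It was lower on HCD in 8 of 9 batches, with a log2 fold change of -0.46 ± 0.13 (adjusted p = 0.0442 and 0.276). The Rieske iron-sulfur protein UQCRFS1 (-0.38, adjusted p = 0.0726), cytochrome c1 CYC1 (-0.30, 0.121), UQCRB (-0.30, 0.175) and UQCRC2 (-0.29, 0.173) were not called in the blocked fit.

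In complex I, NDUFS8 was at 38.0, 54.2 and 86.5 CPM in WT-NCD and 25.3, 46.3 and 58.7 CPM in WT-HCD. It was lower on HCD in 8 of 9 batches, batch 5 being the exception, with a log2 fold change of -0.43 ± 0.11 (adjusted p = 0.0354 in the blocked fit and 0.356 with no batch term). NDUFAF5, which acts on NDUFS7 during assembly in human cells, was at low levels of 3.25 to 8.28 CPM on NCD and 2.88 to 7.04 CPM on HCD. It was nonetheless lower on HCD in 9 of 9 batches (-0.41 ± 0.11, adjusted p = 0.0354 and 0.324). NDUFV1, which binds NADH and FMN, had a log2 fold change of -0.27 (adjusted p = 0.201) and the largest core subunit NDUFS1 -0.31 (0.255). Neither of these core subunits was called. NDUFAF7, an arginine methyltransferase of complex I assembly, stood at 0.20 (adjusted p = 0.635).

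Complex IV members had the widest spread, and the extremes were genes at low levels. For cox8b the lowest, median and highest levels were 8.12, 19.0 and 37.2 CPM in WT-NCD and 5.80, 7.62 and 23.0 CPM in WT-HCD. HCD was lower in 8 of 9 batches, and the log2 fold change was -0.78 ± 0.20 (adjusted p = 0.0315 in the blocked fit and 0.346 with no batch term). Its copy cox8a did not pass the test (-0.09, adjusted p = 0.723). COX6A1 (ENSDARG00000054588) was at 0.260, 1.158 and 4.39 CPM on NCD and 0.820, 5.45 and 6.80 CPM on HCD. It was higher on HCD in 7 of 9 batches, batches 1 and 7 being the exceptions, with a log2 fold change of 1.20 ± 0.32 (adjusted p = 0.0393 and 0.254). A second ID, cox6a1 (ENSDARG00000022438), carried 48.3 to 138 CPM in the WT libraries and had a log2 fold change of -0.16 (adjusted p = 0.539). Reads of similar genes can be misassigned or lost in counting, and this was not tested for these IDs.

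Other complex IV members had lower levels without passing the test. The muscle-type subunit cox7a1 was lower on HCD in 9 of 9 batches, most in batch 1 (14.2 to 1.24 CPM). Its log2 fold change of -0.92 ± 0.30 had an adjusted p of 0.0875 in the blocked fit. The summed skeletal muscle markers also fell in batch 1 (328 to 38.2 CPM) but rose in batch 2 (107 to 1249 CPM). The part of muscle in the levels of cox7a1 and of the called cox8b was not tested. For cox4i1l, a copy of COX4I1 at 0.312 to 10.9 CPM, the log2 fold change was -0.72 ± 0.29 (adjusted p = 0.168). COX4I1 itself, COX5A, COX5B (ENSDARG00000015978) and COX7A2 (ENSDARG00000053217) stood at -0.30 (adjusted p = 0.126), -0.15 (0.545), -0.21 (0.330) and -0.33 (0.208). COX4I2, the isoform induced by low oxygen in mammals, was barely detected (0 to 1.06 CPM over all libraries), and cox6b1 had a log2 fold change of 0.08 (0.769).

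The most abundant ATP synthase transcripts varied widely between WT libraries. ATP5F1A had a median of 2081 CPM in WT-NCD (623 to 2290) and of 1103 CPM in WT-HCD (368 to 2484). ATP5F1B had medians of 2367 and 1241 CPM. Both WT-HCD medians equalled the lowest WT level of batches 5 to 9, so they sit at the edge of the split between batches. The gap between medians is therefore no measure of the change within batches. ATP5F1A and ATP5F1B were lower on HCD in 7 of 9 batches, with log2 fold changes of -0.41 ± 0.15 (adjusted p = 0.125) and -0.39 (0.150). The membrane ring subunit atp5mc3b was lower in 9 of 9 batches (-0.48 ± 0.15, adjusted p = 0.0647), and atp5mc1, which encodes the same ring protein, stood at -0.39 (0.227). The inhibitors atp5if1a and atp5if1b, which stop ATP hydrolysis by the enzyme when the membrane potential fails, had log2 fold changes of 0.06 (0.863) and -0.16 (0.633). In complex II, SDHA, the flavoprotein subunit, was lower in 9 of 9 batches (-0.26 ± 0.10, adjusted p = 0.128), and SDHB and SDHC stood at -0.26 (0.105) and -0.22 (0.335). The non-member SDHD (ENSDARG00000030139), the other anchor, stood at -0.28.

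**Figure D3:**
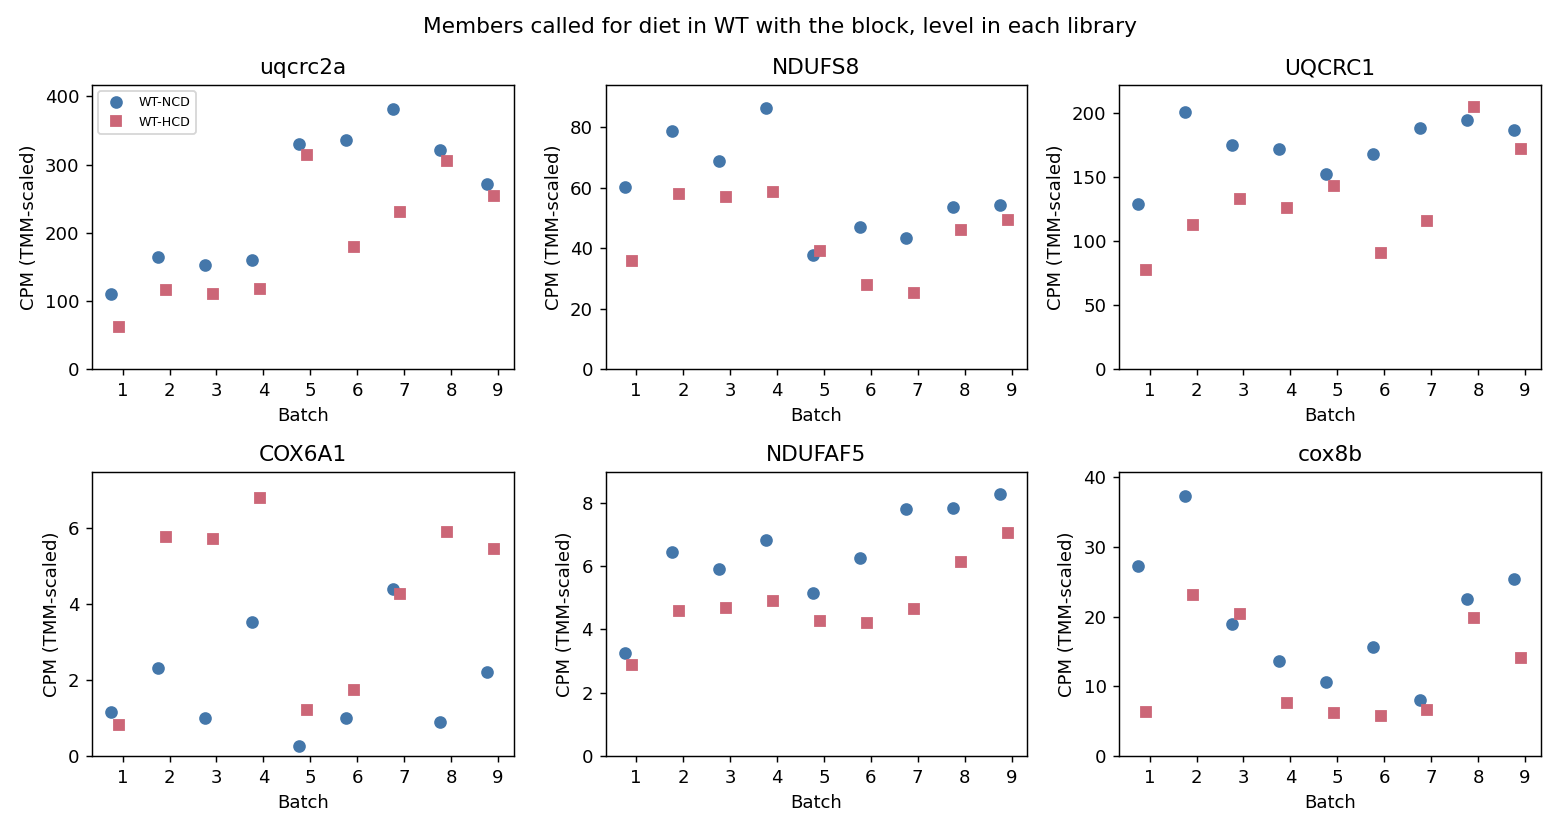
Level (TMM-scaled CPM) of the 6 members called for diet in WT with batch as a block, in each of 18 WT libraries by batch. HCD lies below NCD in 9 of 9 batches for uqcrc2a and NDUFAF5, in 8 of 9 for UQCRC1, NDUFS8 and cox8b, and above NCD in 7 of 9 for COX6A1.

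The size of the shift differed between batches. The median within-batch difference of the 102 members (log2 CPM, HCD minus NCD) was -0.48, -0.53, -0.17, -0.31, 0.04, -0.58, -0.34, 0.08 and 0.10 in batches 1 to 9. For all well-counted genes (mean of 50 counts or more) it was between -0.21 and 0.04. Members were lower on HCD in 93, 95, 72, 91, 43, 89, 78, 36 and 38 of 102. Batches 5, 8 and 9 therefore showed no general lowering, and the summed CPM of the members was lower in 7 of 9 batches. The summed CPM of complex II was lower in 9 of 9, that of complex III in 8, that of ATP synthase in 7, and those of complexes I and IV in 6.

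**Figure D4:**
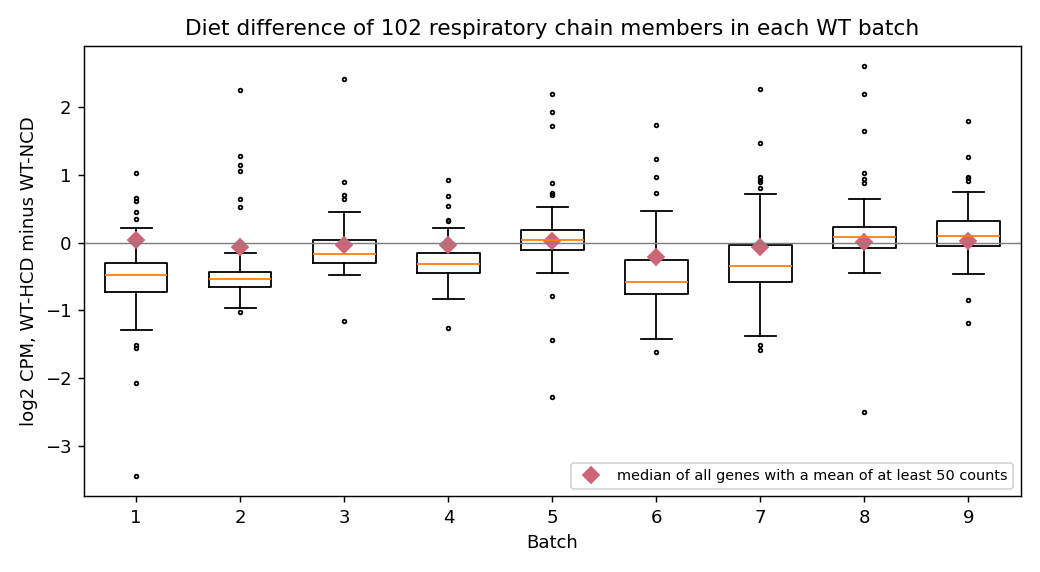
Within-batch difference between HCD and NCD (log2 CPM) of 102 members in each WT batch, as box plots, with a diamond for the median over all genes whose mean was 50 counts or more. Box medians run from -0.58 in batch 6 to 0.10 in batch 9, and diamonds from -0.21 to 0.04.

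The direction of these differences was set relative to other genes by the scaling. TMM factors were higher in WT-HCD than in WT-NCD in 9 of 9 batches (medians 1.27 and 0.882). With library totals in place of TMM, the members' median was 0.095, and 0.12 with the block. That of all genes was 0.38 and 0.39, with the members 0.29 and 0.27 below it. Since scaling moves all genes nearly alike, the gap to all genes would stay under any scaling and is no test of it. In that blocked fit 3 members were called, all higher (NDUFV2, cox6b1 and COX6A1), beside 16% of all genes. As a raw share of counts the members were lower on HCD in 4 batches and higher in 5.

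The calls also depended on single batches. Each batch held 2 WT libraries, so in the blocked fit leaving out either took its batch out of the diet difference. Without either WT library of batch 2, 4 or 6 no member was called in the blocked fit, and without either of batch 3 only cox8b was. Without WT-NCD 9 there were 11 calls and without WT-HCD 9 there were 9. No member was called in batches 1 to 6 alone, in batches 1 to 4 or 5 to 9 alone, or without batch 2, and COX6A1 alone was called without batches 1 and 6, whose HCD libraries had the lowest hepatocyte sums. In the 18 fits that each left out a library (2 per batch), cox8b was called in 10 and uqcrc2a and NDUFS8 in 6. UQCRC1 was called in 5 of these fits, COX6A1 in 4 and NDUFAF5 in 3. The share of all genes called in these reduced fits is not given here. Their counts therefore compare fits, and do not show that the members depend on single batches more than other genes.

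Markers of cell types moved with diet too. The hepatocyte sum was lower on HCD in 9 of 9 batches (78992 to 196914 CPM on NCD, 22018 to 155026 on HCD), and 11 of 11 hepatocyte markers were below 0 in the blocked fit, with a median of -0.43. The summed neutrophil markers were at 0.683 to 5.42 CPM on NCD and 1.53 to 285 on HCD, with 5 of 5 genes above 0, although lyz and epx were at 0 in 12 of 24 libraries each. Macrophage markers were at 14.4 to 34.03 and 19.8 to 115 CPM, with 4 of 4 tested genes above 0. The cholangiocyte sum was higher on HCD in 9 of 9 batches (888 to 2351 CPM on NCD, 1089 to 4142 on HCD), with 4 of 5 genes above 0. Skeletal muscle markers summed to 50.5 to 600 CPM on NCD and 38.2 to 1249 CPM on HCD. The members' sum and the hepatocyte sum had the same sign of change in 7 of 9 batches. With the hepatocyte sum lower throughout, this only repeats the number of batches in which the members' sum was lower. The part of these cell types in the members' differences was not tested.

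In the WT libraries of batches 7 to 9 alone, which share a fit with the miR-21OE libraries, the diet difference was small: the members' median was -0.03, and -0.05 with the block. No member was called in either fit (0 and 1 at an unadjusted p under 0.05) or by DESeq2 with the block, where edgeR called 0% of all genes with no batch term and 0.0831% with the block. The lowest values were those of cox8b (-0.47), NDUFAF5 (-0.43) and cox4i1l (-0.41), and the highest those of NDUFAF7 (0.56), COX7A2 (ENSDARG00000110700, 0.58) and COX6A1.

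The second comparison was of miR-21OE with WT livers in batches 7 to 9, over 6 libraries of each genotype with the diets averaged. In the blocked fit 5 members rose and 0 fell, where 2.17% of all genes were called: atp5if1a, cox8a, SDHC, SDHB and NDUFA8. Only atp5if1a was called with no batch term, where 0.388% of all genes were. Each of these 5 was higher in 6 of 6 within-batch differences. These differences came from only 3 batches, with both diets of a batch counted. Libraries of a batch deviated together, so the 6 are not independent replicates of the genotype. For each of the 5, all 6 miR-21OE libraries lay above all 6 WT libraries of batches 7 to 9. Such a separation upward held for 5 of 103 members and for 1.06% of all tested genes, and downward for 0 members and 0.494% of all tested genes. In all, 89 of 102 members were above 0 in the blocked fit and the median log2 fold change was 0.19, beside -0.00 for all genes. The shift was not seen in every batch: within batches 7, 8 and 9 the members' median difference (log2 CPM, miR-21OE minus WT) was 0.21, 0.24 and 0.16 on NCD and 0.44, -0.09 and 0.25 on HCD, where 70 of 102 members were lower in batch 8. The members' median exceeded that of all genes by 0.19 under TMM, DESeq2 size factors and library totals alike. A change of scaling moves all genes nearly alike, so this gap cannot test the scaling. DESeq2 with the block called 8 members, all higher, beside 5.43% of all genes, and added UQCRQ, COX6A1 and cox7b.

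The ATP synthase inhibitor atp5if1a had the largest log2 fold change among the called members. It was at 6.01, 4.59 and 4.39 CPM in WT-NCD 7 to 9 and at 6.11, 5.10 and 4.37 CPM in WT-HCD 7 to 9. In miR-21OE-NCD it was at 11.3, 12.7 and 10.2 CPM and in miR-21OE-HCD at 12.1, 10.4 and 14.3 CPM. The lowest transgenic library was thus well above the highest WT library, on both diets. The log2 fold change was 1.21 ± 0.16 (SE, adjusted p = 0.00301 in the blocked fit and 0.0160 with no batch term). The paralog atp5if1b stood at -0.56 ± 0.34 (adjusted p = 0.536), at 0.632 to 1.65 CPM in miR-21OE.

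Complex II contributed SDHB, which carries its iron-sulfur clusters, and SDHC, a membrane anchor. SDHC was at 12.2, 12.7 and 12.9 CPM in WT-NCD 7 to 9, 8.43, 11.3 and 16.1 CPM in WT-HCD, 23.3, 21.0 and 24.8 CPM in miR-21OE-NCD and 19.7, 17.02 and 23.1 CPM in miR-21OE-HCD. The gap between genotypes was narrow, 16.1 against 17.02 CPM, and the log2 fold change was 0.79 ± 0.15 (adjusted p = 0.0171 in the blocked fit and 0.117 with no batch term). In the WT libraries of batches 1 to 4 SDHC stood at 19.1 to 29.8 CPM, within or above the transgenic range. SDHB was at 56.1, 40.7 and 42.3 CPM in WT-NCD, 47.5, 38.9 and 33.5 CPM in WT-HCD, 78.5, 65.8 and 57.7 CPM in miR-21OE-NCD and 69.3, 57.1 and 68.7 CPM in miR-21OE-HCD. Here too the closest libraries, 56.1 and 57.1 CPM, were nearly level (0.61 ± 0.12, adjusted p = 0.0235 and 0.181). Over the WT libraries of batches 5 to 9 SDHB reached 59.4 CPM, above the lowest transgenic library. The catalytic subunit SDHA (0.16 ± 0.13, adjusted p = 0.666) was not called, and SDHD, the other anchor and no member, stood at 0.17.

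Complex IV and complex I contributed one small subunit each. The level of cox8a was 24.5, 24.9 and 29.9 CPM in WT-NCD, 25.4, 25.2 and 39.3 CPM in WT-HCD, 50.03, 59.4 and 52.6 CPM in miR-21OE-NCD and 41.2, 49.9 and 53.5 CPM in miR-21OE-HCD. WT-HCD 9 stood above the other WT libraries of these batches, and the log2 fold change was 0.85 ± 0.13 (adjusted p = 0.00624 in the blocked fit and 0.0615 with no batch term). In the WT libraries of batches 1 to 4 cox8a stood at 26.3 to 44.4 CPM, reaching above the lowest transgenic library. NDUFA8, an accessory subunit on the intermembrane side, was at 31.6, 31.6 and 26.6 CPM in WT-NCD, 30.6, 33.5 and 19.2 CPM in WT-HCD, 49.6, 44.9 and 42.5 CPM in miR-21OE-NCD and 45.4, 39.5 and 50.01 CPM in miR-21OE-HCD. The highest WT library (33.5) was below the lowest transgenic one (39.5), with a log2 fold change of 0.65 ± 0.15 (adjusted p = 0.0434 and 0.176).

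**Figure D5:**
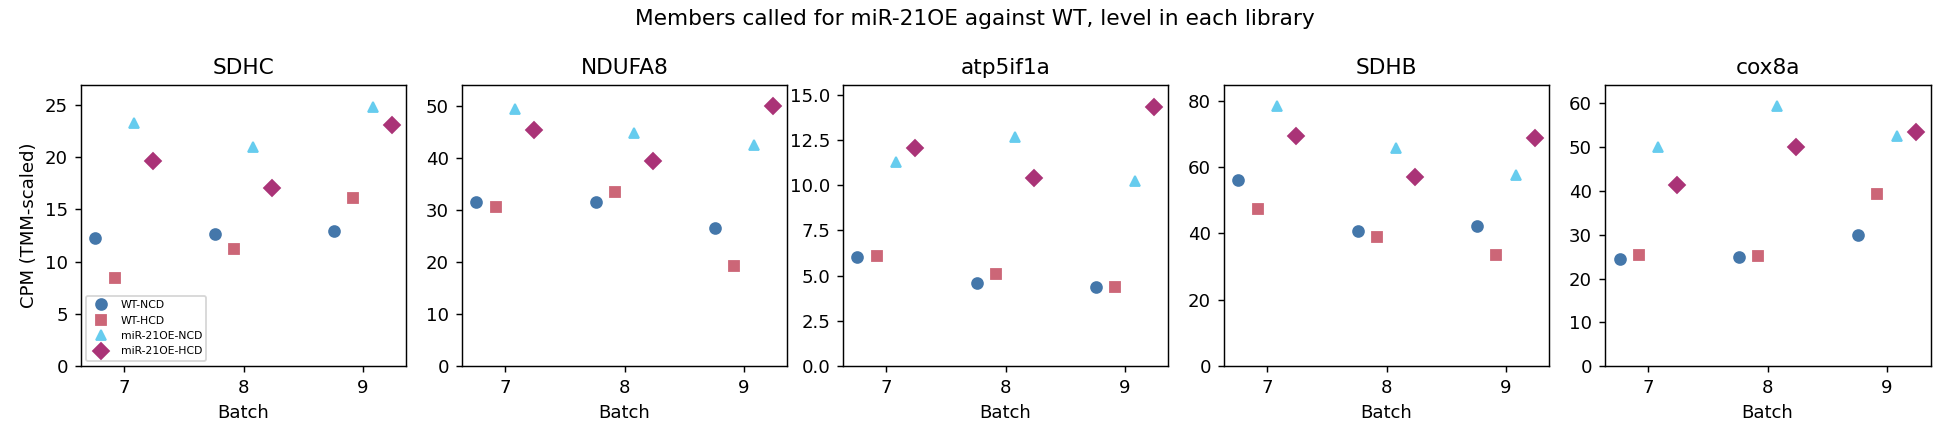
Level (TMM-scaled CPM) of the 5 members called for miR-21OE against WT with batch as a block, in each of 12 libraries of batches 7 to 9, with the 4 groups in different symbols. The 6 miR-21OE libraries lie above the 6 WT libraries in each panel, by 10.2 against 6.11 CPM at the closest for atp5if1a and by 17.02 against 16.1 CPM for SDHC.

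By class, the blocked medians were 0.61 in complex II (2 of 3 called), 0.23 in complex IV (1 of 20), 0.17 in complex I (1 of 38), 0.16 in complex III (0 of 9, with 9 of 9 above 0) and 0.10 in ATP synthase (0 of 18, with 13 of 18 above 0). The abundant catalytic subunits ATP5F1A (0.13, adjusted p = 0.777) and ATP5F1B (0.06, 0.918) were not called. Neither were UQCRC1 (0.05, 0.936) and uqcrc2a (0.04, 0.951), which fell with diet in WT. UQCRQ (0.52 ± 0.13, adjusted p = 0.0649) and UQCR10 (0.53, 0.184), small subunits of complex III, and cox7b (0.44 ± 0.13, 0.104) were higher in 6 of 6 within-batch differences but did not pass in the blocked fit. The same held for COX6A1 (1.40 ± 0.40, adjusted p = 0.107), at 13.9, 1.56 and 2.56 CPM in miR-21OE-NCD, where one library stood apart. The lowest values with no batch term were those of atp5meb (-0.09), ATP5PF (-0.06) and ATP5PO (-0.05).

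Leaving out a library changed which members passed. In the blocked fit atp5if1a and cox8a were called in 12 of 12 such fits, SDHC in 11, SDHB in 3 and NDUFA8 in 0. The count was 2 without miR-21OE-NCD 1, 4 without WT-HCD 7, miR-21OE-HCD 1 or WT-NCD 9, and 3 without each other library. With no batch term, atp5if1a was not called without WT-NCD 8 or without miR-21OE-HCD 3, and there were 2 calls without WT-HCD 9. Shares of all genes called in these reduced fits are not given here either. In the libraries of batches 7 to 9 the hepatocyte sum was 62221 to 196914 CPM in WT and 113026 to 178160 in miR-21OE. Of its markers, 8 of 11 were above 0 (blocked median 0.04). Within batches the sum was lower in miR-21OE than in WT in 3 of 3 on NCD and in 1 of 3 on HCD. Macrophage markers were at 14.8 to 29.2 CPM in WT and 21.9 to 40.3 in miR-21OE, with 4 of 4 above 0 (0.59). Endothelial markers were lower in miR-21OE in 6 of 6 within-batch differences (97.7 to 129 CPM in WT, 72.2 to 97.8 in miR-21OE), with 4 of 5 genes below 0 (-0.43). Muscle markers were at 63.5 to 600 and 98.0 to 335 CPM, with 4 of 4 below 0 (-0.64). Neutrophil markers were below 0 in 4 of 4 (-0.71), and enterocyte (0.95) and pancreas (0.22) markers above 0 in 3 of 3 each. The pancreas sum nonetheless had a median of 986 CPM in WT (474 to 8139) and of 711 CPM in miR-21OE (225 to 21794). Its highest value was that of miR-21OE-NCD 3 alone. The part of these cell types in the members' differences was not tested.

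On NCD alone (3 against 3 libraries), cox8a was the only member called in the blocked fit (1.03 ± 0.19, adjusted p = 0.0499, and 0.382 with no batch term), where 0.268% of all genes were called. It kept the call in 1 of 12 fits that each left out a library, the one without WT-HCD 9. With no batch term 0 members were called, beside 0.0277% of all genes, with 9 higher and 0 lower at an unadjusted p under 0.05, and DESeq2 with the block called 4, beside 1.92%. The median was 0.22 in both edgeR fits. At the low end with no batch term stood NDUFAF5 (-0.14), COX7A2L (-0.12) and atp5mc3b (-0.08), and at the high end cox8a (1.02), atp5if1a (1.18) and COX6A1 (1.22).

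On HCD alone no member was called by edgeR, where 0.00462% of all genes were called with no batch term and 0.245% with the block. At an unadjusted p under 0.05 there were 6 and 7 members, all higher, and DESeq2 with the block called 3 (atp5if1a, SDHB and cox8a), beside 1.57%. The median was 0.12 with no batch term and 0.14 with the block. The blocked value of atp5if1a was 1.22 ± 0.23 (adjusted p = 0.0612), close to its 1.19 ± 0.23 on NCD (0.0640). At the low end with no batch term stood COX7A2 (ENSDARG00000110700, -0.32), atp5meb (-0.21) and atp5mea (-0.20), and at the high end SDHC (0.71), atp5if1a (1.21) and COX6A1 (1.87).

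The third comparison was of diet within miR-21OE, and of that response with the one in WT of the same batches. No member was called for diet in miR-21OE by edgeR or DESeq2 with the block, where edgeR called 0% of all genes with no batch term and 0.00923% with the block. At an unadjusted p under 0.05 there was 1 member, higher, with no batch term, and 1 higher and 1 lower with the block. The median was -0.13, and -0.12 with the block, with 83 of 102 below 0 beside -0.00 over all genes. Within batches 7, 8 and 9 the members' median difference (log2 CPM, HCD minus NCD) was -0.16, -0.27 and 0.11. Members were lower on HCD in 77, 90 and 32 of 102. Batch 9 thus showed no general lowering, and all well-counted genes stood at a median of 0.14 there. COX6A1 was at 18.8, 13.1 and 26.4 CPM in miR-21OE-HCD and higher than on NCD in 3 of 3 batches, with a log2 fold change of 2.08 ± 0.58 (adjusted p = 0.935). The other ends of the range with no batch term were cox4i1l (-0.80), COX7A2 (ENSDARG00000110700, -0.49), atp5mj (-0.40), NDUFA3 (0.20) and NDUFAF7 (0.52).

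The test of the difference between the 2 diet responses called no member in either edgeR fit, where 0% of all genes were called with and without the block, and none by DESeq2 with the block (0 members at an unadjusted p under 0.05 with no batch term, 1 lower in each blocked fit). A different response to diet in miR-21OE was thus not detected for any member with 3 libraries per group. The extreme values were COX7A2 (ENSDARG00000110700, -1.07), NDUFB4 (-0.72) and NDUFB6 (-0.59) at the low end and cox8b (0.32), COX7A2L (0.38) and COX6A1 (0.65) at the high end. These contrasts share libraries: the WT libraries of batches 7 to 9 enter the diet comparison in WT, both genotype comparisons and the interaction.

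Genes that work with the chain were counted by list in the same fits. For diet in WT, 0 genes of each list were called with no batch term. The blocked counts of each list stand beside the 7.48% of all genes called there. With the block, 13 of 13 mitochondrially encoded subunits were below 0 and 0 were called (median -0.36), and the sums of these genes and of the members had the same sign of change in 8 of 9 batches. The TCA cycle list also held genes of the pyruvate dehydrogenase complex (PDHX among them) and pyruvate carboxylase (PC), which feed the cycle. Of its 23 genes, 4 fell (IDH3B -0.36, SUCLG2 -0.79, PDHX -0.48 and PC, ENSDARG00000098766, -0.57), with 20 below 0 and a median of -0.29. Of 18 carrier and coenzyme Q genes, 3 fell. They were ETFDH, which passes electrons from fatty acid oxidation to coenzyme Q (-0.62 ± 0.14, adjusted p = 0.0213), COQ10B (-0.75 ± 0.15, 0.0133) and the synthesis enzyme COQ5 (-0.46 ± 0.11, 0.0246). Of 50 assembly factors 1 fell (higd1a, -0.58), and of 75 mitochondrial ribosomal proteins 1 fell (MRPS30, -0.49).

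Among 21 regulators of mitochondrial biogenesis, 3 fell with diet in WT in the blocked fit, and ESRRA, a nuclear receptor that activates respiratory chain genes in mammals, had the lowest value. Its level was 14.3, 29.8 and 95.6 CPM (lowest, median, highest) in WT-NCD and 5.71, 19.1 and 49.6 CPM in WT-HCD. It was lower on HCD in 9 of 9 batches, with a log2 fold change of -0.91 ± 0.16 (adjusted p = 0.00498). The mitochondrial transcription factor tfb2m (-0.57, adjusted p = 0.0334) and an ID of YY1 (-0.36, 0.0492) also fell. A second ID that carries YY1 was not among those that fell. The coactivators PPARGC1A (-0.60, 0.0573) and ppargc1b (-0.45, 0.0610) did not pass.

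For miR-21OE averaged over both diets, the regulators (0 of 21 called), carriers (0 of 18), assembly factors (0 of 50) and mitochondrially encoded subunits (0 of 13, median 0.02) had no calls in the blocked fit. The TCA cycle list, with its pyruvate dehydrogenase and pyruvate carboxylase genes, had 5 of 23, beside 2.17% of all genes. DLAT, the acetyltransferase of the pyruvate dehydrogenase complex, was at 35.2 to 52.6 CPM in WT and 78.9 to 108 CPM in miR-21OE, without overlap, and rose by a log2 fold change of 1.23 ± 0.14 (adjusted p = 0.00119 in the blocked fit and 0.00729 with no batch term). MDH2 (malate dehydrogenase) rose by 0.94 ± 0.13 (adjusted p = 0.00373 and 0.0171). Of the same list, PDHB, a subunit of the pyruvate dehydrogenase that works with DLAT, fell (-0.64 ± 0.12, adjusted p = 0.0204), as did PC (ENSDARG00000051939, -1.03 ± 0.18, 0.0108). Mitochondrial ribosomal proteins were above 0 in 63 of 75, with a median of 0.23 and 1 called (MRPL4, 0.61).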

How the data were processed

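RNA from pooled larval livers was sequenced by the authors as paired reads from strand-specific libraries depleted of ribosomal RNA. The authors deposited raw counts per Ensembl gene. The submitters' processing notes name cutadapt 1.16, STAR 2.7.9a, featureCounts 1.6.3 and GRCz11, and the strand setting of the counting was not given in the sources used here, so overlapping antisense genes are uncertain. The authors' own tests used DESeq2. Of 32520 genes, 29201 had a symbol and 4334 were at 0 in each library. No library duplicated another of its group (smallest chi-square per degree of freedom 19.0 over 78 pairs).

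Counts were tested with edgeR 4.0.16 (R 4.3.3, quasi-likelihood F-test, TMM scaling, at least 10 counts in total, Benjamini-Hochberg adjusted p under 0.05 over all genes tested, two-sided). Diet in WT was fitted on 18 libraries and the other contrasts on the 12 libraries of batches 7 to 9. The fit without a batch term was the planned one. SE was taken as the log2 fold change divided by the square root of F. Libraries of a batch deviated together (mean r 0.466, lowest 0.193 over 18 pairs in the 12 libraries, and mean 0.587, lowest 0.345 over 9 WT pairs) and the labels give the batch, so values with batch as a block stand beside the others. CPM used TMM-scaled totals. Replicates are pools, and p-values measure the spread between pools. The script was checked on simulated counts.

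Alternatives were DESeq2 1.42.0, other scalings and filters, left-out libraries and fewer libraries. The subsets of batches, blocked rescalings, and scaling without mitochondrially encoded genes and rn7sl1 were chosen after seeing the data. Named genes were fixed core members, members called, and in each contrast the 3 highest and 3 lowest log2 fold changes among members with a mean of at least 50 counts. Members and companion lists were chosen with earlier results of these data known. Some single-gene results are not reported here. Sequences were not used here.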

Additional observations from a re-analysis of the deposited data

Results flagged for a closer look

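Single libraries that stood apart from their group were looked for in 66 groups of values, and chance alone marks about 1 group in 20. The level of cox8a in WT-NCD 2 was 44.4 CPM, with the next library at 32.6 CPM, a gap of 0.590 of the range of the 9 WT-NCD libraries. The summed CPM of complex I in WT-NCD 1 was 710, below the next library at 873, a gap of 0.514 of the range.

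The diet difference of NDUFB4, an accessory subunit of complex I, went in opposite directions in the 2 genotypes. HCD was higher than NCD by 0.17, 0.59 and 0.43 (log2 CPM) in WT of batches 7 to 9 and lower in the miR-21OE libraries of those batches (-0.39, -0.47 and -0.09), a difference of -0.71 between the means. The opposite signs are not themselves a test, and the interaction term had an adjusted p of 1.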

How the results depend on the processing

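Of 1215 alternative values of the 50 named log2 fold changes, 1122 kept direction and call, 62 newly passed, 2 no longer passed and 29 from 16 results turned direction. The causes were not tested. For diet in WT over 9 batches, 0 members were called with no batch term, 6 with batch as a replicate block, 32 by DESeq2 with the block and 3 with library totals and the block. The blocked count of 6 became 10 with DESeq2 size factors, 0 in batches 1 to 6, 1 to 4 or 5 to 9 and without batch 2, and 1 without batches 1 and 6. It was 0 to 11 when a library was left out. For miR-21OE on NCD, 0 calls became 1 with the block, 2 by DESeq2, 4 by DESeq2 with the block and 2 with totals and the block (0 to 1 in the blocked fit when a library was left out). On HCD, 0 became 1 by DESeq2 and 3 with the block. Averaged over diets, 1 became 5 with the block, 5 by DESeq2, 8 by DESeq2 with the block, 7 with totals and the block and 2 with a mean of at least 50 counts (0 to 2 when a library was left out, and 2 to 4 in the blocked fit). The block changed the count in no other contrast. For several of these fits the share of all genes called is not given. Their counts therefore compare fits, and not the members with other genes.

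Directions turned as follows. Median for diet in WT: 0.095 and 0.12 with totals, without and with the block, and in batches 7 to 9 0.17 and 0.16. For diet in WT, cox6b1 was -0.0057 in batches 1 to 6 and -0.073 in batches 1 to 4, and NDUFAF7 -0.056 in batches 1 to 4. With totals, without and with the block, NDUFAF5 was 0.019 and 0.023, COX7A2L 0.050 and 0.059 and atp5mc3b 0.088 and 0.092 on NCD, and ATP5PF 0.061 and 0.058 and ATP5PO 0.058 and 0.075 averaged over diets. Leaving out a library gave -0.11 to 0.0098 for ATP5PF, -0.19 to 0.045 for ATP5PO and -0.37 to 0.044 for atp5meb averaged over diets, and -0.28 to 1.88 for COX6A1 on NCD. On HCD it gave -0.68 to 0.018 for COX7A2, -0.44 to 0.15 for atp5mea, -0.76 to 0.060 for atp5meb and -0.045 to 0.22 for the median. It gave -0.0045 to 0.38 for NDUFA3 (diet in miR-21OE), -0.75 to 0.084 for cox4i1l and -0.14 to 0.13 for the median (diet in WT of batches 7 to 9), and -0.0066 to 2.15 for COX6A1, -0.016 to 0.73 for cox8b and -0.27 to 0.034 for the median (interaction). The fold change of atp5if1a averaged over diets was 1.13 to 1.27. Depth limited members at a few counts, such as COX4I2.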
